A study of Mus musculus with 3 samples.

Results

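Sox17-GFP(+) endoderm made from mouse embryonic stem (ES) cells with Nodal was compared with Sox17-GFP(+) endoderm made with Activin A. The comparison rests on 4 of the 6 arrays of the series, chosen by the names of their columns: 2 arrays of Nodal-derived cells and 2 of Activin-derived cells. The third group, also of 2 arrays, was undifferentiated cells of the same line. It entered the fit only to help estimate the spread between arrays, and its levels are given here as a point of orientation. Every probe of the array was eligible, so the members were fixed by treatment and not by any measured value.

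All 3 groups came from 1 ES cell genotype, Sox17-GFP, on a 129 background, in which green fluorescent protein reports the endoderm transcription factor Sox17. The Nodal group received recombinant mouse Nodal at 1000 ng/ml, and the Activin group received recombinant human Activin A at 50 ng/ml, in medium with fetal bovine serum. Both treated groups are named for day 7 in their source names, where the treatment protocol states a span of 6 to 8 days. The undifferentiated group was kept with LIF and serum on gelatin with mouse embryonic fibroblast feeders. Ligand, dose and species of the protein differ together between the treated groups and cannot be told apart. Separate cultures behind the arrays are not stated in the labels, whose descriptions list different replicate numbers (3 for Nodal and 2 for Activin) where the signal table holds 2 arrays each. P-values therefore measure the spread between these arrays, which may be technical. The cells were measured in bulk, so fewer cells of a type and less RNA per cell cannot be told apart.

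Nodal and Activin are secreted ligands of the TGF-beta family that signal through the same activin receptors and the same transducers, Smad2 and Smad3. Nodal needs a coreceptor of the EGF-CFC family, Tdgf1 (Cripto) or Cfc1 (Cryptic), and is held back by the secreted antagonists Lefty1, Lefty2 and Cer1. Activin needs no such coreceptor and is bound by follistatin (Fst). In the mouse embryo, strong signalling in the anterior primitive streak gives definitive endoderm, the source of the gut, lungs, liver and pancreas. Visceral endoderm is an extraembryonic layer around the embryo that absorbs, degrades and secretes nutrients and carrier proteins, and it shares Sox17 and Foxa2 with definitive endoderm.

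The arrays of the treated groups were alike in overall signal, with a median probe signal of 57.46 to 60.85 and 49.65% to 50.56% of the 25697 probes detected. Across the 10222 genes tested, the correlation of log2 levels was 0.99773 between the Nodal arrays and 0.9969 between the Activin arrays. Between a Nodal and an Activin array it ran from 0.99383 to 0.99566, a description across genes, which are not independent replicates. Sox17, the gene behind the reporter, had normalized log2 levels of 11.90 and 11.79 after Nodal, 11.83 and 11.89 after Activin and 6.58 and 6.45 in undifferentiated cells. The treated groups overlapped, with a log2 difference (Nodal minus Activin) of -0.02 and a 95% interval from -0.22 to 0.19. Both treated groups are Sox17-GFP(+) cells by label, so high Sox17 in both follows from that choice and is no result of the comparison.

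Markers of cell types were then set side by side. The summed normalized signal of 5 measured definitive endoderm markers was 11749 and 11528 after Nodal and 13158 and 13711 after Activin, against 224 and 216 in undifferentiated cells. None of the 5 differed between the treated groups past the test. Sox17, the gene behind the reporter, is among the 5. The summed signal of 6 measured visceral endoderm markers was 4847 and 4428 after Nodal and 1231 and 1130 after Activin, with 2798 and 2799 in undifferentiated cells, and all 6 were higher after Nodal. These 6 were chosen with earlier results known and include 5 of the 15 largest increases (Ttr, Soat2, Dab2, Amn and Hnf4a). The other, Sox7, is expressed in parietal endoderm too, passed on 1 of its 2 probes and lost its call without either Nodal array (adjusted p up to 0.0995), and in a longer visceral endoderm list 13 of 23 genes did not pass. Parietal endoderm markers summed to 11489 and 11427 after Nodal, 7820 and 8830 after Activin and 4202 and 4103 in undifferentiated cells, with 2 of 5 (Lama1 and Pth1r) higher after Nodal. Feeder markers were near background in both treated groups, at 109 and 105 after Nodal and 113 and 108 after Activin, with Col1a1 and Col3a1 undetected there. Macrophage markers summed to 103 and 108 after Nodal and 128 and 127 after Activin, with Lyz1, Lyz2 and Tyrobp undetected and Cd68 lower after Nodal.

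Of 10222 genes tested, 288 (2.82%) differed between Nodal-derived and Activin-derived cells at an adjusted p under 0.05: 151 (1.48%) were higher and 137 (1.34%) were lower after Nodal. The differences were mostly small, with a median absolute log2 difference of 0.59 among the 288 genes and 26 genes past 2-fold, of which 17 were higher and 9 lower after Nodal. For all 288 genes, the Nodal arrays did not overlap the Activin arrays, but over all genes tested the Nodal arrays lay above both Activin arrays for 23.1% and below both for 22.5%. At an unadjusted p under 0.05, 1589 genes differed. Leaving out a treated array leaves 1 array in its group, which lowers the power whichever array it is. The number of calls then fell. It was 81 without Nodal replicate 1, 81 without Nodal replicate 2, 81 without Activin replicate 2 and 186 without Activin replicate 1. Of the 288 genes, 49 (29 higher and 20 lower) passed whichever of the 6 arrays was left out.

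**Figure D1:**
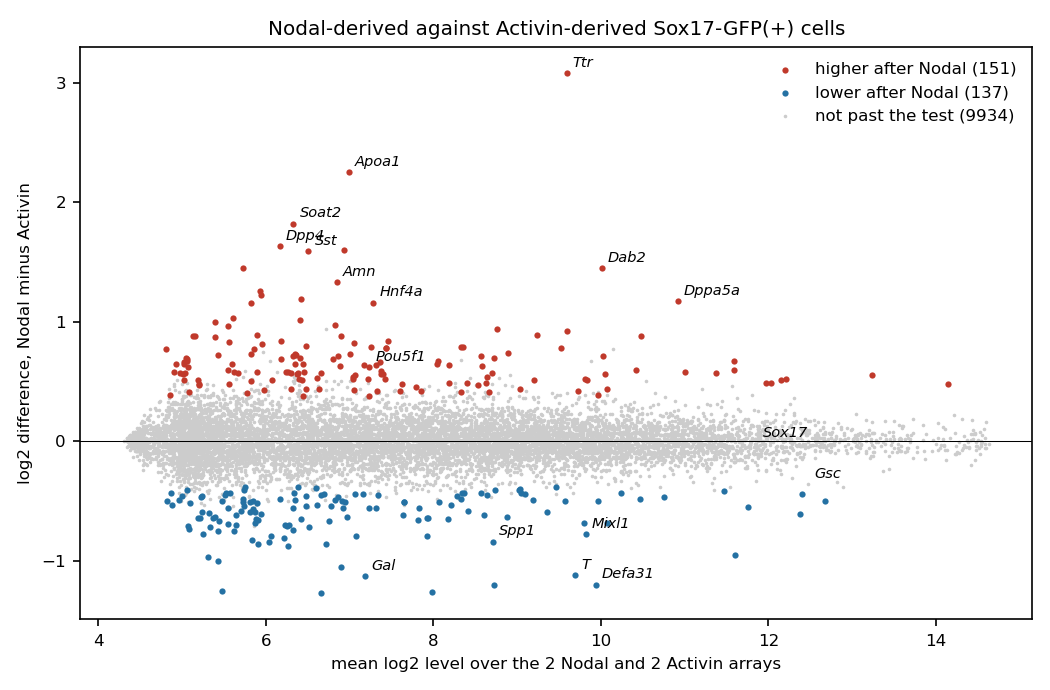
Log2 difference (Nodal minus Activin, vertical axis) against the mean normalized log2 level over the 4 treated arrays (horizontal axis) for the 10222 genes tested, with genes higher (151) and lower (137) after Nodal at an adjusted p under 0.05 in colour. Ttr stands apart at 3.08, the lower side reaches -1.27, and most genes lie near 0.

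The 2 largest increases after Nodal were in genes of secreted carrier proteins. Ttr, which encodes the carrier of thyroid hormone and retinol-binding protein, had log2 levels of 11.18 and 11.08 after Nodal, 8.45 and 7.65 after Activin and 5.26 and 4.94 in undifferentiated cells. Both Nodal arrays lay far above both Activin arrays, which differed from each other more than the Nodal arrays did. Ttr was 8.44-fold higher after Nodal (log2 difference 3.08, SE 0.217, adjusted p 0.000236). Apoa1, the main protein of high-density lipoprotein, had log2 levels of 8.07 and 8.16 after Nodal, 5.99 and 5.74 after Activin and 4.65 and 4.50 in undifferentiated cells. It was 4.74-fold higher after Nodal (log2 difference 2.25, SE 0.107, adjusted p 5.13e-05), with a wide gap between the groups.

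Soat2, a gene of the visceral endoderm list that esterifies cholesterol for storage and lipoprotein export, had log2 levels of 7.05 and 7.43 after Nodal and 5.34 and 5.50 after Activin. That was 3.53-fold higher after Nodal (SE 0.125 on the log2 scale, adjusted p 0.000236), while undifferentiated cells were higher than either group at 7.99 and 8.00. Among genes of the absorptive surface and endocytic machinery, Dpp4, a peptidase of the apical membrane, had log2 levels of 7.04 and 6.93 after Nodal and 5.37 and 5.34 after Activin. It was 3.10-fold higher (SE 0.0862, adjusted p 6.72e-05). Amn, the membrane anchor that partners cubilin in protein uptake, had log2 levels of 7.48 and 7.54 after Nodal and 6.18 and 6.19 after Activin. It was 2.51-fold higher (SE 0.0824, adjusted p 0.000139). Dab2, the endocytic adaptor of megalin, had log2 levels of 10.86 and 10.61 after Nodal and 9.26 and 9.31 after Activin, a 2.73-fold increase that its other probe also passed. As with Soat2, undifferentiated cells were not at the bottom for these genes: Dpp4 stood at 7.98 and 7.91, Amn at 9.63 and 9.67 and Dab2 at 10.40 and 10.39 there, so the Activin-derived cells held the lowest level of the 3 groups.

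Gut genes followed. Sst, which encodes somatostatin, had log2 levels of 7.10 and 7.51 after Nodal and 5.93 and 5.50 after Activin, and was 3.01-fold higher after Nodal (adjusted p 0.00154). Ghrl, which encodes ghrelin, had log2 levels of 6.49 and 6.43 after Nodal and 4.92 and 5.08 after Activin, where it was detected on 1 of the 2 arrays. It was 2.74-fold higher (adjusted p 0.000139), and its other probe passed too. Vil1, which encodes villin, the actin bundler of microvilli, had log2 levels of 6.37 and 6.44 after Nodal and 5.25 and 5.24 after Activin, a 2.23-fold difference. All 3 hormone or microvillus genes were undetected on both undifferentiated arrays. Hnf4a, the nuclear receptor that drives liver, gut and visceral endoderm gene programmes, had log2 levels of 7.95 and 7.78 after Nodal and 6.75 and 6.65 after Activin. It was 2.23-fold higher (log2 difference 1.16, SE 0.104, adjusted p 0.00106), and the Activin-derived cells lay at the level of undifferentiated cells (6.57 and 6.76).

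The other members of the 15 largest increases were Slc13a4, a sulphate transporter (3.04-fold), Muc13, a transmembrane mucin (2.40-fold), Dlk1, an imprinted Notch-ligand-like protein (2.32-fold), Ednrb, the endothelin B receptor (2.28-fold), and Dppa5a, an RNA-binding protein of ES cells (2.25-fold). Muc13 passed on 1 of its 2 probes. The call of Ednrb was lost without Nodal replicate 1, Nodal replicate 2 or Activin replicate 2. Its Activin levels of 6.26 and 5.40 were well apart, and its log2 difference ran from 0.76 to 1.62 as each array in turn was left out. The other 14 genes kept their calls whichever array was left out.

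Among the decreases, the largest came from small secreted peptides. Defa26, an alpha-defensin, had log2 levels of 5.78 and 6.26 after Nodal and 7.17 and 7.41 after Activin, a log2 difference of -1.27 (SE 0.151, adjusted p 0.00379). Defcr-rs10, a defensin-related gene under its file symbol, had log2 levels of 7.26 and 7.44 after Nodal and 8.44 and 8.77 after Activin, a log2 difference of -1.26. Nodal-derived cells were the lower group on every array for both genes, and undifferentiated cells lacked a detected signal for either. Defa31 was 2.30-fold lower after Nodal, AY761185 2.29-fold and Defcr-rs2 1.94-fold. A family of genes with a Defa or Defcr symbol was put together after the values were seen. Of 7 measured, 5 were lower and 2 did not pass, beside 1.34% lower over all genes tested. The 2 were Defcr (difference 0.08, adjusted p 0.831) and Defcr6 (-0.04, adjusted p 0.918), both detected on every treated array. Defa29, at least 1.16-fold lower, was detected only on the Activin arrays and entered the test through them. Alpha-defensins are antimicrobial peptides of the gut, encoded by a cluster of near-identical genes, so probes may read more than 1 of them and the level of any single member is uncertain. Defa26 lost its call without Activin replicate 2 (adjusted p 0.0515).

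Il4, a cytokine, was undetected on both Nodal arrays and detected on both Activin arrays, where it had log2 levels of 5.96 and 6.26, and was at least 2.14-fold lower after Nodal. Gal, which encodes the neuropeptide galanin, had log2 levels of 6.60 and 6.63 after Nodal and 7.62 and 7.87 after Activin and was 2.18-fold lower (adjusted p 0.00111). Mfsd2a, a lysolipid transporter, was likewise undetected after Nodal and at least 1.72-fold lower. Neither Il4 nor Mfsd2a was detected in undifferentiated cells, so both entered the test only through the Activin arrays, where they are high. Further decreases, each between 1.79-fold and 2.07-fold, were those of Tmem114, Crmp1, a cytosolic semaphorin mediator, Lypd1, a modulator of nicotinic receptors, Mmp9, a gelatinase, Msc, a repressor of the helix-loop-helix family, and Spp1, which encodes osteopontin. Crmp1 passed on 1 of its 2 probes, and Msc lost its call without Activin replicate 2 (adjusted p 0.0561).

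**Figure D2:**
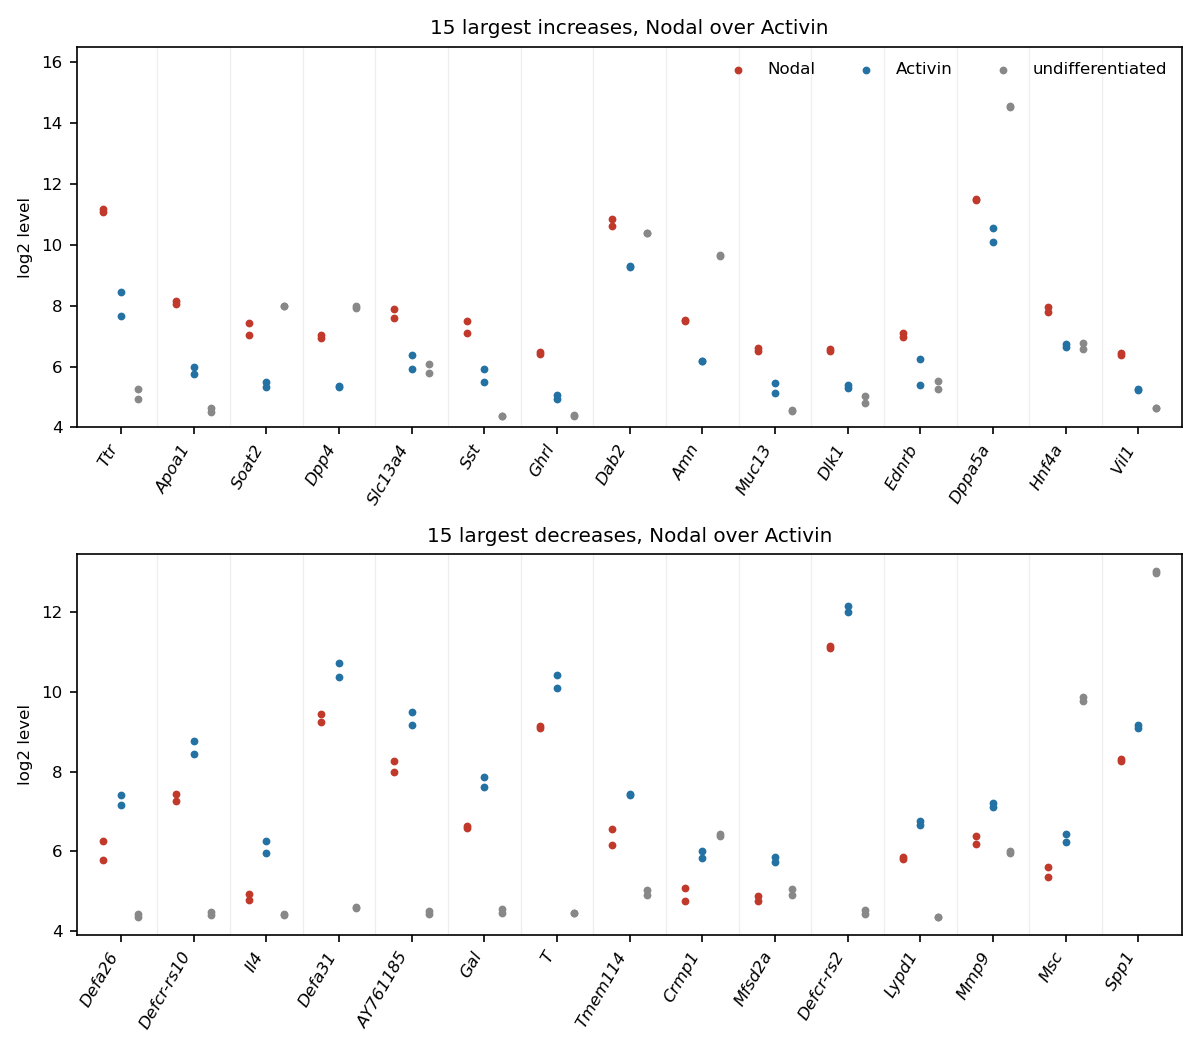
Normalized log2 levels on each array (points, Nodal, then Activin, then undifferentiated) for the 15 genes with the largest increases and the 15 with the largest decreases after Nodal. Nodal and Activin points are apart for each gene shown, and for Soat2, Dpp4, Amn and Dppa5a among the increases and Crmp1, Msc and Spp1 among the decreases the undifferentiated arrays lie above both treated groups.

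Among transcription factors of the primitive streak, T and Mixl1 were lower after Nodal. T (Brachyury), the T-box factor of streak and nascent mesoderm, had log2 levels of 9.10 and 9.15 after Nodal, 10.09 and 10.41 after Activin and 4.46 and 4.46 in undifferentiated cells. Both treated groups were far above the undifferentiated arrays, with Nodal below Activin on every array. T was 2.18-fold lower after Nodal (log2 difference -1.12, SE 0.111, adjusted p 0.00147). Mixl1, a homeobox factor of streak and nascent endoderm, had log2 levels of 9.38 and 9.48 after Nodal and 10.16 and 10.26 after Activin. It was 1.72-fold lower (log2 difference -0.78, SE 0.0882, adjusted p 0.00294), and its other probe passed as well. Lmo2, a cofactor of blood development, fell by 0.58, while Tbx3, a T-box factor also used in pluripotency, rose by 0.57. In all, 2 of 18 measured streak and mesoderm genes were higher, 3 were lower and 13 did not pass. The median log2 difference was -0.13, beside 0.002 over all genes tested, of which 1.48% were higher and 1.34% lower. The call of Lmo2 was lost without any 1 of the 4 treated arrays (adjusted p up to 0.164), and that of Tbx3 without either Nodal array or Activin replicate 2 (up to 0.0953).

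Most definitive endoderm and organizer factors did not differ past the test. Eomes, a T-box factor needed for endoderm, differed by -0.10 on the log2 scale (95% interval -0.34 to 0.15), Foxa2 by -0.03 (-0.24 to 0.18) and Cxcr4, the receptor used to sort endoderm, by -0.16 (-0.38 to 0.07). Gsc, the organizer homeobox gene, had log2 levels of 12.23 and 12.35 after Nodal and 12.62 and 12.67 after Activin. Its difference was -0.36 (95% interval -0.56 to -0.16), with an adjusted p of 0.0659. Lhx1, its LIM homeobox partner in the head organizer, differed by -0.33 (95% interval -0.54 to -0.12, adjusted p 0.112) and Cer1, a secreted antagonist, by -0.25 (-0.51 to 0.02, adjusted p 0.36). Hhex, a homeobox gene of anterior endoderm, differed by 0.29 (0.1 to 0.47, adjusted p 0.114). The intervals of Gsc, Lhx1 and Hhex thus exclude 0, so a missed threshold does not show likeness. In the definitive endoderm list, Tmprss2, a membrane serine protease, rose by 0.78 and Mixl1 fell, and 20 of 22 genes did not pass, with a median of -0.04. Of 18 anterior endoderm and organizer genes, 3 fell (T, Foxd4 by 0.64 and Nog, a secreted BMP antagonist, by 0.54), none rose and 15 did not pass. At an unadjusted p under 0.05 in limma, 7 of the 22 definitive endoderm genes and 11 of the 18 anterior endoderm and organizer genes differed. Over all genes tested, 1589 of 10222 did. Tmprss2, Foxd4 and Nog each lost the call without either Nodal array or without Activin replicate 2, with adjusted p up to 0.116, 0.0912 and 0.164.

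**Figure D3:**
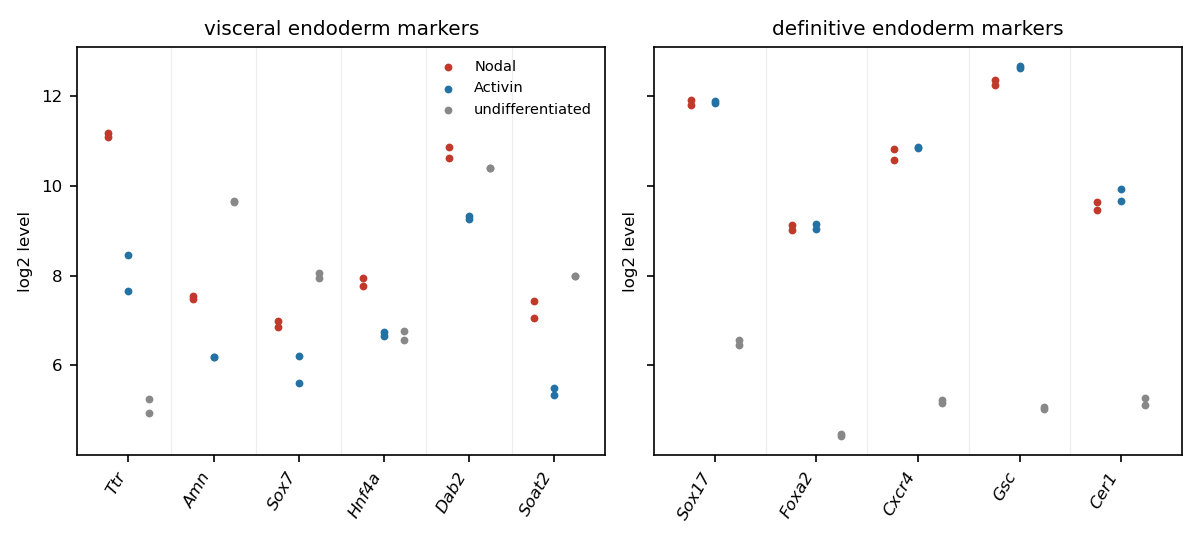
Normalized log2 levels on each array (points, Nodal, then Activin, then undifferentiated) for 6 genes of visceral endoderm (left) and 5 genes of definitive endoderm (right). Ttr, Amn, Sox7, Hnf4a, Dab2 and Soat2 lie higher after Nodal than after Activin on every array, while Sox17 and Foxa2 overlap between the treated groups.

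The start regions of Apoa1, Hnf4a and T are shown because these genes mark the carrier, regulator and streak sides of the comparison. Each sequence is the 250 bases before the annotated start from RefSeq on GRCm38.p6, plus strand, and capitals mark the only match found to any of the 5 motifs searched, a GATA motif 52 bases before the start of Hnf4a. Hnf4a has 2 annotated starts, of which the first is shown. The regions are chr9:46228380-46228629, chr2:163506607-163506856 and chr17:8434173-8434422.
Apoa1: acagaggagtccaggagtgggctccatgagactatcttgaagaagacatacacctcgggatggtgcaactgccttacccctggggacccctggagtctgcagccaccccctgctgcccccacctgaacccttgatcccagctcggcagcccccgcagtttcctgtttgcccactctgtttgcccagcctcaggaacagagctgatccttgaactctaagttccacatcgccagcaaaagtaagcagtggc
Hnf4a: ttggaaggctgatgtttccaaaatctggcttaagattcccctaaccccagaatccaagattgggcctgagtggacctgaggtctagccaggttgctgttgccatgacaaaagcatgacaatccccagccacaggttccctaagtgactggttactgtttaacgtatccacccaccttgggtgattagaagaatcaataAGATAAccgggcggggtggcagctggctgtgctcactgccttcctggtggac
T: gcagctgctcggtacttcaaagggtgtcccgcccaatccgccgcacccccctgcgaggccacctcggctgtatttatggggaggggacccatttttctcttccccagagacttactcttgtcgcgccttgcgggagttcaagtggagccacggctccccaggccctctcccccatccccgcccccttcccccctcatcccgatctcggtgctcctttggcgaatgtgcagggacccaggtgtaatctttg

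The motifs were searched on both strands as fixed letters: CAAAGTCCA for HNF4, TGTTTAC for FOXA, AGATAA for GATA, TCACACCT for T-box factors and AATCCACA for FOXH1, the Smad partner. A promoter was matched by symbol for 103 of the 151 higher genes and 101 of the 137 lower genes. The FOXA letters were in 5 (4.85%) of the higher and 1 (0.99%) of the lower promoters, against 3.09% of all 27025 promoters of the same length. That set was not limited to the genes tested. For GATA the shares were 6.8% (7 promoters), 5.94% (6) and 10.3%, and for the T-box letters 2.91% (3 promoters), 0 and 1.14%. The HNF4 letters were in none of the higher promoters, 1 (0.99%) of the lower and 0.381% of all, and the FOXH1 letters in none, 1 (0.99%) and 0.751%. These are descriptions of letters in a window and were not tested.

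The gene lists were chosen with earlier results known, and some genes are counted in more than 1 list. Over all genes tested, 1.48% were higher after Nodal. By gene list, visceral endoderm genes had the largest number of increases. Of 23 measured, 10 were higher after Nodal, none was lower and 13 did not pass, and the median log2 difference was 0.52, beside 0.002 over all genes. Secreted plasma proteins and apolipoproteins had 8 of 18 higher, 1 lower and a median of 0.55, or 0.28 with genes undetected after Activin set to their bounds. Apom, an apolipoprotein of high-density lipoprotein, was at least 1.48-fold higher and Apoa2 at least 1.12-fold, both undetected on the Activin arrays. Apoa2 was undetected in undifferentiated cells too, so it entered the test only through the Nodal arrays. Rbp4, the retinol-binding protein carried by transthyretin, had log2 levels of 7.10 and 7.28 after Nodal and 6.66 and 5.84 after Activin. Its difference of 0.94 missed the threshold (adjusted p 0.0535), with the Activin arrays far apart. Foregut, gut tube and organ bud genes had 7 of 20 higher, 1 lower and a median of 0.37, among them Clic6, a chloride channel protein, with a rise of 0.60. The call of Clic6 was lost without either Nodal array or Activin replicate 2 (adjusted p up to 0.17).

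Among genes of parietal endoderm and of the basement membrane, 6 of 21 were higher and none was lower, beside 1.48% higher over all genes tested. The median was 0.34. The largest rise, 1.45, was that of Dab2, which is also counted among the visceral endoderm genes. Its difference ran from 1.32 to 1.57 as each array in turn was left out. Sox7, a relative of Sox17 expressed in parietal and visceral endoderm and counted in both lists, had log2 levels of 6.85 and 6.98 after Nodal and 5.60 and 6.21 after Activin. Its rise of 1.01 passed on 1 of its 2 probes, and undifferentiated cells were above both groups at 8.05 and 7.95. Lama1, a laminin chain of the basement membrane, had 10.93 and 10.92 after Nodal and 9.71 and 10.38 after Activin, a rise of 0.88. Undifferentiated cells had 10.87 and 10.73, near the Nodal level, so for Sox7 and Lama1 the Activin-derived cells were the lowest group. Pth1r, the receptor of parathyroid hormone-related peptide, rose by 0.52 and was undetected in undifferentiated cells. The Activin arrays of Sox7 and Lama1 were well apart, and each of these 3 calls was lost without either Nodal array; that of Lama1 also without Activin replicate 1 and that of Pth1r without either Activin array (adjusted p up to 0.0995 for Sox7, 0.164 for Lama1 and 0.127 for Pth1r). Lysosome and endocytosis genes had 5 of 22 higher, none lower and a median of 0.16. Besides Dab2 and Amn, these included the cathepsins Ctsh (0.71) and Ctsl (0.64). Ctsh lost its call without Nodal replicate 2 or Activin replicate 1 (adjusted p up to 0.094), and Ctsl without Nodal replicate 1 or either Activin array (up to 0.141).

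**Figure D4:**
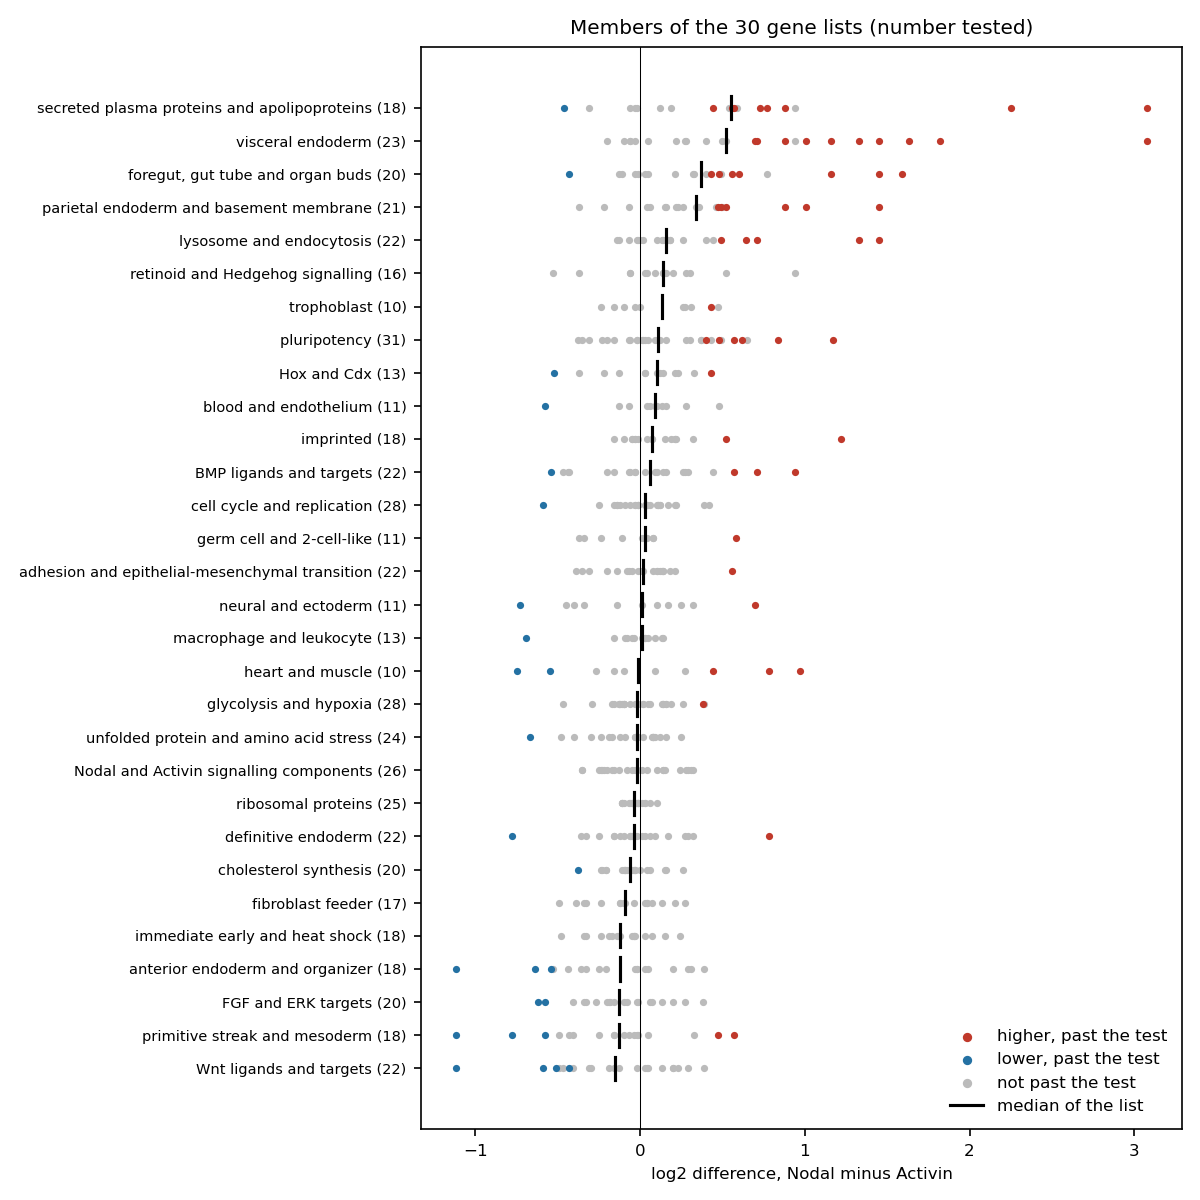
Log2 difference (Nodal minus Activin, horizontal axis) of every tested member of each of the 30 gene lists, with the list's median marked and members past the test in colour. Visceral endoderm, plasma protein, gut and parietal endoderm lists have medians from 0.34 to 0.55, and the other lists lie between -0.15 and 0.16.

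The calls among pluripotency genes were all increases. Of 31 measured, 6 were higher after Nodal, none was lower and 25 did not pass, with a median of 0.11. Over all genes tested, 1.48% were higher. Pou5f1 (Oct4) had log2 levels of 7.60 and 7.49 after Nodal, 6.73 and 7.12 after Activin and 12.85 and 12.69 in undifferentiated cells. It rose by 0.62 (adjusted p 0.0409) on 1 of its 2 probes, and the call was lost without either Nodal array or Activin replicate 1 (up to 0.22). Dppa5a had 11.48 and 11.51 after Nodal, 10.11 and 10.54 after Activin and 14.57 and 14.53 in undifferentiated cells, and Fbxo15, an F-box gene of ES cells, rose by 0.84. Nanog differed by 0.11 (95% interval -0.16 to 0.38) and Sox2 by 0.49 (0.2 to 0.78, adjusted p 0.0867). The 4 pluripotent cell markers summed to 576 and 590 after Nodal and 480 and 446 after Activin, against 26266 and 26593 in undifferentiated cells.

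Components of the Nodal and Activin pathway themselves had log2 differences from -0.35 to 0.32, with the Lefty probes, described below, left out of the list. None of 26 measured passed the test in limma, and the median was -0.02. At an unadjusted p under 0.05, 9 of the 26 differed, a larger share than the 1589 of 10222 over all genes tested. The ligand gene Nodal had log2 levels of 8.25 and 8.37 after Nodal treatment and 8.58 and 8.50 after Activin, a difference of -0.23 (95% interval -0.43 to -0.03, adjusted p 0.25). The coreceptor Tdgf1 had 10.24 and 10.24 after Nodal and 10.60 and 10.58 after Activin, a difference of -0.35 (95% interval -0.55 to -0.14, adjusted p 0.0846), with both Nodal arrays lower. The other coreceptor, Cfc1, differed by 0.14 (95% interval -0.06 to 0.34), the antagonist Fst by -0.22 (-0.54 to 0.09) and the inhibin subunit Inhbb by 0.14 (-0.06 to 0.34). Inhba, the subunit of Activin A, was undetected in both treated groups, and Smad7 was not among the genes tested.

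The Lefty genes, feedback antagonists and direct targets of the pathway, were measured by probes that the files call Ebaf and Leftb, each an older name for both Lefty1 and Lefty2, so they were left out of the list. Ebaf had log2 levels of 12.06 and 12.08 after Nodal, 12.64 and 12.72 after Activin and 11.12 and 11.06 in undifferentiated cells. It was 1.53-fold lower after Nodal (log2 difference -0.61, SE 0.0843, adjusted p 0.00788). Leftb had 12.45 and 12.41 after Nodal, 12.84 and 13.02 after Activin and 9.74 and 9.87 in undifferentiated cells. It was 1.41-fold lower after Nodal (log2 difference -0.50, SE 0.0979, adjusted p 0.0326). In both cases the treated groups did not overlap, but both calls were lost without either Nodal array or Activin replicate 2, with adjusted p up to 0.0663 for Ebaf and 0.182 for Leftb.

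In other signalling lists most genes did not pass. The BMP, Wnt and FGF lists still held larger shares of calls than all genes tested (2.82%), and the lists were chosen with earlier results known. Of 22 BMP ligand and target genes, 3 rose (Bmper, a secreted BMP regulator, by 0.94, Id2, a BMP-induced inhibitor of helix-loop-helix factors, by 0.71, and Tbx3), 1 fell (Nog) and the median was 0.06. Of 22 Wnt ligand and target genes, none rose and 4 fell, T among them, with Ccnd1 (cyclin D1) by 0.59, Fzd10 (a Wnt receptor) by 0.51 and Axin2 (a feedback inhibitor of Wnt signalling) by 0.43, and the median was -0.15. Of 20 FGF and ERK targets, none rose and 2 fell, Etv4, an ETS factor induced by FGF, by 0.62 and Fgf17 by 0.58, with a median of -0.13. All of these calls but T were lost when a single array was left out. Bmper was lost without Nodal replicate 2 or Activin replicate 2 (adjusted p up to 0.129), and Etv4 without Nodal replicate 1 or Activin replicate 2 (0.113). Id2 (0.192) and Fgf17 (0.0995) were lost without either Nodal array or Activin replicate 2. Fzd10 (0.122) was lost without any treated array, Ccnd1 (0.212) without any array but Activin replicate 1, and Axin2 (0.236) without any of the 6. None of 16 retinoid and Hedgehog genes passed in limma (4 at an unadjusted p under 0.05), with a median of 0.14.

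In lists of other lineages the calls went in both directions. Over all genes tested, 1.48% were higher and 1.34% lower after Nodal. Heart and muscle genes had the highest share of calls among these lists, with 3 of 10 higher and 2 lower, and a median of -0.01: the myosin light chain genes Myl4 and Myl7 rose by 0.97 and 0.78, while Tagln, an actin-binding smooth muscle protein, fell by 0.75 and Acta2, smooth muscle actin, by 0.55. Neural and ectoderm genes had 1 of 11 higher (Trp63, the epithelial p63 factor, at least 1.29-fold) and 1 lower (Krt14, a basal keratin, at least 1.36-fold), with a median of 0.01. Trp63 was detected only on the Nodal arrays, and Krt14 only on the Activin arrays and 1 undifferentiated array. Neither would have entered the test without its higher group. Trophoblast genes had 1 of 10 higher and a median of 0.13, or 0.01 with bounds, and Hox and Cdx genes had 1 of 13 higher and 1 lower and a median of 0.10. The increase in both lists was Cdx2, a caudal homeobox factor, by 0.43, and the decrease was Hoxb2, at least 1.28-fold. Blood and endothelium genes had 1 of 11 lower (Lmo2) and a median of 0.09, and macrophage and leukocyte genes 1 of 13 lower (Cd68, a lysosomal protein of macrophages, by 0.69) and a median of 0.01. None of 17 feeder genes passed in limma (6 at an unadjusted p under 0.05), with a median of -0.09. Of the calls named here, that of Tagln passed without each of the 6 arrays. Those of Myl4 (adjusted p up to 0.0827), Trp63 (0.0804) and Cd68 (0.0688) were lost without Nodal replicate 1 or Activin replicate 2, and that of Myl7 (0.153) without Nodal replicate 2 or Activin replicate 2. Acta2 (0.116) and Krt14 (0.0879) were lost without either Nodal array or Activin replicate 2, Hoxb2 (0.158) without any treated array and Cdx2 (0.28) without any of the 6.

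Housekeeping and stress lists held at most 2 calls each, where 2.82% of all genes tested were called. Cell cycle and replication genes had 1 of 28 lower (Ccnd1, median 0.03), cholesterol synthesis genes 1 of 20 lower (Cyp51, lanosterol demethylase, by 0.38, median -0.06), and genes of the unfolded protein response and amino acid stress 1 of 24 lower (Nupr1, a stress-induced nuclear protein, by 0.67, median -0.02). Glycolysis and hypoxia genes had 1 of 28 higher (Ndrg1, a hypoxia-induced gene, by 0.38, median -0.02), adhesion and epithelial-mesenchymal transition genes 1 of 22 higher (Cldn3, a tight junction claudin, by 0.56, median 0.02), and the list of germ cell genes with those of the 2-cell-like state 1 of 11 higher (Ooep, an oocyte protein, by 0.58, median 0.03). Imprinted genes had 2 of 18 higher, Dlk1 and the non-coding RNA H19 (0.52), with a median of 0.07. No ribosomal protein gene of 25 passed in limma (none at an unadjusted p under 0.05, median -0.04), and none of 18 immediate early and heat shock genes did (3 at an unadjusted p under 0.05, median -0.12). Of these calls, only Dlk1 kept its call without each array. Ooep (adjusted p up to 0.159) was lost without Nodal replicate 2 or either Activin array, Nupr1 (0.201) without Nodal replicate 1 or either Activin array, and H19 (0.183) without either Nodal array or Activin replicate 2. Cldn3 (0.0989) was lost without any treated array, and Cyp51 (0.215) and Ndrg1 (0.242) without any of the 6.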

How the data were processed

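Biotin-labelled cRNA made from total RNA was hybridised to 6 Illumina bead arrays of 1 colour. The deposited table holds, per the file headers, a non-normalized probe intensity and a detection p-value for each of 25697 probes and each array. A second deposited table holds the authors' replicate averages as intensity values, some below 0. How these were scaled is not stated, and the table was used only to check directions. The array model and the scanner are not named in the labels.

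Background was removed from the intensities with normexp in limma 3.58.1 (R 4.3.3), with an offset of 16 and the background taken from the detection p-values, before quantile normalization and log2. Probes with a detection p-value under 0.05 on at least 2 arrays were kept (14050), and each gene was taken from its brightest probe (10222 genes). A gene detected only in its higher group thus entered the test through that group alone. Symbols were updated through RefSeq names of GRCm38.p6: 17548 probes had a current symbol, 7082 were updated, 1046 kept the file's symbol and 21 carried dates and were not named. A model of 3 groups was fitted to all 6 arrays with limma's lmFit and eBayes. P-values are two-sided and Benjamini-Hochberg adjusted over all genes, with a threshold of 0.05. Where a gene was undetected on both arrays of the lower group, its fold is a lower bound from each array's lowest detected signal. The number of arrays limits the precision: 2 against 2 arrays cannot give an exact permutation p below 0.333. On simulated data with 10222 genes, 47.3% of 74 changes of 0.5, 88.7% of 71 changes of 1 and 100% of 55 changes of 2 on the log2 scale were recovered. In the same run 12 unchanged genes were called. The noise was drawn independently from each gene's spread between these arrays, so the rates do not carry over to separate cultures.

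Named genes were Sox17, a set of endoderm, streak, pathway and pluripotency genes, the 15 largest increases and decreases past the test with groups that did not overlap, and up to 4 members past the test of each of 30 lists. A gene that met these rules is not reported here. The members, lists and rules were chosen with earlier results of these data known. Alternatives changed the background (none, or an offset of 50), the scaling (cyclic loess or median scaling) and the filter (none, or a detection p-value under 0.01). Others used every probe, the mean of a gene's probes, the treated arrays alone, a replicate block, a trended robust variance, a minimum fold of 1.2 and leaving out each array.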

Additional observations from a re-analysis of the deposited data

How the results depend on the processing

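The 288 calls (151 higher and 137 lower after Nodal) became 471 (258 and 213) without background correction and 468 (253 and 215) with an offset of 50. They became 442 (239 and 203) with a trended robust variance, 114 (60 and 54) without the filter, with 17836 genes tested, and 46 (26 and 20) when tested against a minimum fold of 1.2. Leaving out single arrays gave 81 to 246 calls, with 46 to 135 higher and 28 to 111 lower. Median scaling gave 329 calls, cyclic loess 295, a detection p-value under 0.01 364, every probe 286, the mean of probes 275 and the treated arrays alone 246. The numbers of the replicates pair nothing by the labels, and same-numbered Nodal and Activin arrays deviated together with a correlation of 0.101. With the replicate block, 283 genes passed (160 and 123), 252 of them among the 288. No named gene past the test changed its direction under any alternative run, while Foxa2, Fst, Inhba, Nanog and Sox17, which missed the threshold, changed sign without at least 1 array. For called genes the treated groups did not overlap, so leaving out 1 array could not change their direction. Of the called genes, 287 of 288 kept their direction with an offset of 50. In the authors' deposited table of averages, all 288 genes had the same direction. That table averages the same arrays, so the match is no independent check. Of 70 named calls, 43 were kept without the filter and 34 against a minimum fold of 1.2. Apart from the unfiltered, minimum-fold and left-out-array fits, Pou5f1, Sox7, Ccnd1, Fzd10, Axin2, Fgf17, Cdx2, Ndrg1, Cyp51, H19 and Hoxb2 were the named genes whose call was lost under at least 1 alternative. Among named genes that missed the threshold, Rbp4, Gsc, Lhx1, Hhex, Tdgf1 and Sox2 passed with an offset of 50 and with a trended robust variance. The causes were not tested. Signal over background limits the genes near background, where folds are lower bounds.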

Other observations

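The gene groups here were put together after the values were seen, so their counts are descriptions. Over all genes tested, 1.48% were higher and 1.34% lower after Nodal, with a median log2 difference of 0.002. Among 19 measured genes of brush border and microvilli, 9 were higher after Nodal, none was lower and 10 did not pass, with a median log2 difference of 0.26. Besides Dpp4, Amn, Muc13 and Vil1, these were Myo6, a motor of apical endocytosis, with log2 levels of 9.72 and 9.63 after Nodal and 8.88 and 8.70 after Activin (difference 0.89, adjusted p 0.00383), and Pdzd3, a scaffold of apical membrane proteins, undetected after Activin and at least 1.45-fold higher. Cltrn, a partner of amino acid transporters, rose by 0.73, Myo7a, a myosin of microvilli, by 0.72 and Rdx (radixin), which links actin to membranes, by 0.53. These last 3 calls were lost without Nodal replicate 2 or Activin replicate 2, and those of Myo7a and Rdx also without Nodal replicate 1, with adjusted p up to 0.18, 0.144 and 0.206.

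Of 34 measured genes of interferon response and antigen processing, none was higher, 10 were lower and 24 did not pass, with a median of -0.18. Psmb10, a subunit of the immunoproteasome, had log2 levels of 9.80 and 9.67 after Nodal and 10.28 and 10.54 after Activin, a difference of -0.68 (adjusted p 0.0127). Irf1, a transcription factor induced by interferon, had 10.53 and 10.51 after Nodal and 10.93 and 11.04 after Activin, a difference of -0.47 (adjusted p 0.024). Both calls were lost without either Nodal array or Activin replicate 2 (adjusted p up to 0.0995 and 0.144), and none of the 10 kept its call without each of the 6 arrays. Other well-known members did not pass, with differences of 0.40 for Usp18, -0.01 for B2m and -0.05 for Isg15.

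Of 5 insulin-like growth factor binding proteins measured, 1 was higher, 3 were lower and Igfbp2 (-0.27, adjusted p 0.14) did not pass, with a median of -0.63. Igfbp7 had log2 levels of 5.76 and 5.57 after Nodal and 6.45 and 6.46 after Activin (difference -0.79, adjusted p 0.0037), and kept its call without each array. Igfbp4 differed by -0.68 and Igfbp3 by -0.63, while Igfbp5 had 11.28 and 11.29 after Nodal and 10.80 and 10.61 after Activin, a difference of 0.58. The calls of these 3 were lost without either Nodal array or Activin replicate 2, and that of Igfbp4 also without Activin replicate 1 (adjusted p up to 0.153 for Igfbp4, 0.0766 for Igfbp3 and 0.104 for Igfbp5). Of 17 peptide hormone and enteroendocrine genes, 4 were higher, Rfx6, a regulator of endocrine cells, among them by 0.79, and 3 were lower, Gal among them. Rfx6 kept its call only without Activin replicate 1, with adjusted p up to 0.174 otherwise.

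A list of neuron projection and transport genes was put together partly from genes already seen to pass, so its share of calls is set by that choice. Of 25 measured, 1 was higher, 13 were lower and 11 did not pass, with a median of -0.41. Gap43, a growth cone protein, had log2 levels of 6.68 and 6.68 after Nodal and 7.66 and 7.30 after Activin, a difference of -0.79 (adjusted p 0.0119), and lost its call without either Nodal array (up to 0.0767). Sema7a, a membrane-bound semaphorin, had 5.55 and 5.68 after Nodal and 6.25 and 6.67 after Activin, a difference of -0.84 (adjusted p 0.0122), and lost its call without either Nodal array or Activin replicate 2 (up to 0.0878). Of the 14 calls, 1 (Crmp1) was kept without each of the 6 arrays.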
